A study of Mus musculus with 30 samples.

Results

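Voltage-gated calcium channels open when a neuron's membrane depolarises and admit the calcium that triggers transmitter release and dendritic signalling, while potassium channels repolarise the membrane and set how fast a neuron can fire again. The genes that encode them are long and are cut and joined in several ways, so that a single gene yields channels with different gating, modulation or location. NOVA2 is a neuronal RNA-binding protein that binds clusters of the RNA motif YCAY (a pyrimidine, then CA, then a pyrimidine) and promotes or represses the use of nearby exons. Cacna1b, Cacna1e, Cacna2d3, Kcnc2 and Kcnma1 encode 5 of these channel subunits. Every splicing event listed for them was taken from the authors' 4 tables of alternative splicing by matching the gene symbol, which gave 19 of 6491 listed events, and 5 of 2016 gene symbols.

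The tables cover 3 neuron classes of C57BL/6J mice, each with a conditional Nova2 knockout group (cKO) and a wild-type control group that carries the same Cre label. The cortex at embryonic day 18.5 was the source of both sorted classes: Emx1-Cre cells, of the lineage that gives excitatory cortical neurons, and Gad2-Cre cells, which are inhibitory neurons. The Purkinje cell layer of the cerebellum was dissected, not sorted, at postnatal day 28 from Pcp2-Cre mice, so it holds other cells too. Each group had 3 samples of total RNA depleted of ribosomal RNA. The remaining table set the Emx1-Cre controls against the Gad2-Cre controls. No label ties the replicates to different animals, and the authors' FDR may therefore reflect spread that is partly technical.

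The cortical tables give 1 pooled inclusion level per group for each event, a fraction from 0 to 1, with no value per sample and therefore no replicate error. A level sets the named form against the competing form of its own event only. It is not a share of all RNA of the gene, and levels of overlapping events do not add up. The tables list only events that passed the authors' limits, an FDR up to 0.05 and a difference of at least 0.1, so an event without a row may be unchanged, too weakly covered or not expressed. The depth of the libraries is unknown, and the coverage of an event, a column that the files do not define, was 20 or more. Nova2 had 0 listed events in each table and no marker level is measured in them, so neither the loss of Nova2 nor the purity of a sort could be checked.

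The 19 events involve 8 separate regions of the 5 genes, made of 9 alternative exons, all of them coding exons of GENCODE release M21 on mouse build mm10. The shortest are shown here because their inclusion adds or removes only a few amino acids. Each is printed 5′ to 3′ on the gene's own strand, read from GENCODE transcripts, with the exon in capitals and 15 nt of each neighbouring exon in lower case.
Cacna1b, 12 nt, chr2:24656711-24656722, minus strand: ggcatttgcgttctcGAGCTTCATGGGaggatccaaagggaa
Cacna2d3, 18 nt, chr14:29124666-29124683, minus strand: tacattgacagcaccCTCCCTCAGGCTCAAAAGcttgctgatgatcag
Kcnma1, 9 nt, chr14:23432233-23432241, minus strand: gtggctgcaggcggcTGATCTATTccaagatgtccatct

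The longer exons that the results turn on are printed in lower case with every YCAY tetramer (TCAT or TCAC, and also CCAT or CCAC, searched on the RNA strand only) in capitals, since this is the motif NOVA proteins bind.
Cacna1e, 57 nt, chr1:154473857-154473913, minus strand: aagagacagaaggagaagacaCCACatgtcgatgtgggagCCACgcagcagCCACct
Cacna1e, 129 nt, chr1:154404885-154405013, minus strand: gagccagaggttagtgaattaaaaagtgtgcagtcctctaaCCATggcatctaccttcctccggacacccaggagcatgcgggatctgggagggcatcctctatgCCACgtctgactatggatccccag
Cacna1e, 90 nt, chr1:154488044-154488133, minus strand: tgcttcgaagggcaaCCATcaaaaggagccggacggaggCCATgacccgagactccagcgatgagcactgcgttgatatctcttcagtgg
Cacna2d3, 62 nt, chr14:29063885-29063946, minus strand: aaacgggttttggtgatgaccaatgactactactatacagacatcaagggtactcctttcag
Kcnc2, 104 nt, chr10:112456929-112457032, plus strand: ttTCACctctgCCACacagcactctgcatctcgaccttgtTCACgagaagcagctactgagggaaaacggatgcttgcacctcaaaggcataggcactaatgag
Kcnma1, 174 nt, chr14:23425567-23425740, minus strand: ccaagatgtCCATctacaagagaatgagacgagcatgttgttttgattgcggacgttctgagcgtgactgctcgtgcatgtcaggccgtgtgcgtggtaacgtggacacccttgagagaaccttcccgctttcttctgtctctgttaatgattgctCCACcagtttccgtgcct

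In the cKO of both cortical classes, the short exons of Cacna1b and Cacna2d3 were largely skipped. The other events were listed in a single class: in Emx1-Cre neurons, exons of Cacna1e moved in both directions and an exon of Kcnma1 rose, and in Gad2-Cre neurons, an exon of Kcnc2 and another of Cacna2d3 fell. Of the 5 genes, 4 were listed in the Emx1-Cre cKO table, 3 in the Gad2-Cre cKO table, 2 of them in both, and 1 in the table of controls. Of all 1659 genes listed in either cKO table, 471 (28.4%) were listed in both, so listing in a single class was the more common case. The Purkinje layer table had 0 events of these genes, and events that failed the authors' limits were not analysed here. Whether the change in cKO differed between Emx1-Cre and Gad2-Cre neurons was not tested for any of these genes, since the tables hold no value per sample.

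**Figure D1:**
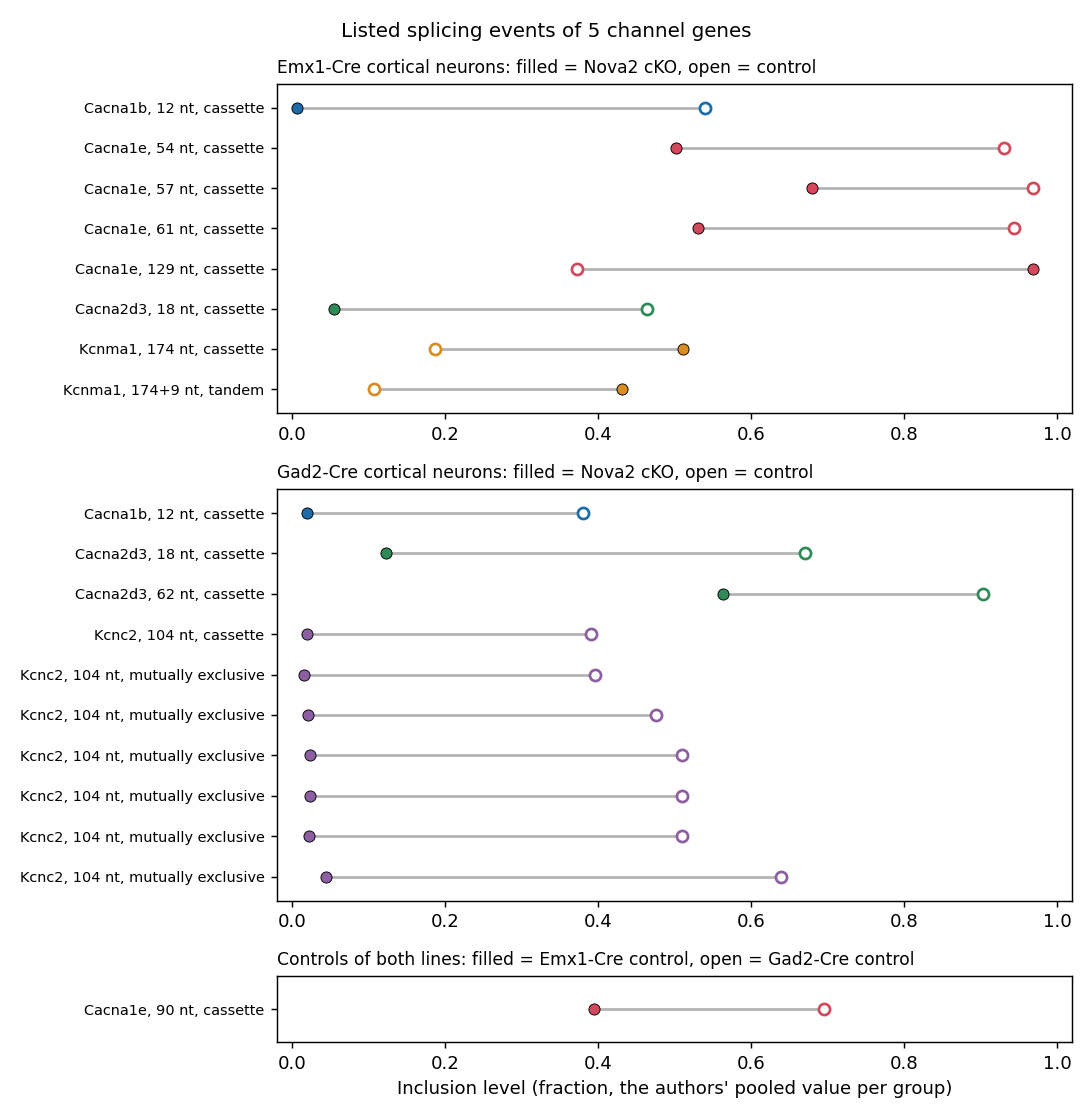
Inclusion level (x axis, fraction) of the 19 listed events, 1 per row, with the length of the alternative exon and the event type. Filled points are cKO and open points control in the upper and middle panels, and Emx1-Cre and Gad2-Cre controls in the lowest panel; points are the authors' pooled group values without error. All 10 Gad2-Cre rows lie lower in cKO, while the Emx1-Cre rows include 3 that lie higher.

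Cacna1b encodes the pore of the N-type calcium channel, which supplies calcium for transmitter release at many presynaptic terminals. Its 12 nt exon inserts a short stretch into an extracellular linker beside a voltage sensor of the channel. In the authors' deposited table for Emx1-Cre neurons, its inclusion was 0.00667 in cKO against 0.540 in controls, a difference of -0.53 (FDR 1.07e-10, coverage 73). In the authors' deposited table for Gad2-Cre neurons, it was 0.0197 in cKO against 0.380 in controls, a difference of -0.36 (FDR 0.0042, coverage 47). The level of the exon against its skipping was thus close to 0 in cKO neurons of both classes, and intermediate in controls. The Cacna1b change ranked 95 of 912 listed cassette exons by size in Emx1-Cre and 153 of 726 in Gad2-Cre neurons. The control levels differed by 0.16 between the classes in the authors' values, but the event has no row in the table of controls.

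The Cacna1b exon was in 3 of 9 coding transcripts of the gene in GENCODE, and 2 others spanned it without the exon. It begins in codon 1227 of 2328 of the longest complete transcript, and leaving it out keeps the reading frame and gives 2324 codons. It holds 1 YCAY tetramer, TCAT, in its 12 nt. Among listed cassette exons up to 27 nt long with a GENCODE sequence, 23.3% of 103 held such a tetramer.

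Cacna1e encodes the pore of the R-type calcium channel, found in dendrites and presynaptic terminals. An exon in the first part of its coding sequence and an exon near the end moved in opposite directions in Emx1-Cre neurons. The exon of 57 nt lies in the part of the RNA that encodes the intracellular loop between the middle repeats of the channel. Its inclusion was 0.680 in cKO against 0.968 in controls in the authors' deposited table (difference -0.29, FDR 1.01e-05, coverage 42.5). The exon of 129 nt encodes part of the carboxy-terminal tail, and its inclusion was 0.968 in cKO against 0.372 in controls in the authors' deposited table (difference 0.60, FDR 1.16e-14, coverage 29.9). The tail exon thus had a level close to 1 in cKO and an intermediate one in controls, while the loop exon had an intermediate level in cKO and one close to 1 in controls.

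The 57 nt exon was also listed with other borders, as rows of 54 nt and 61 nt, and the sequence around it is shown because it holds the competing splice sites. It was read from a GENCODE transcript that retains both introns, chr1:154473828-154473938 on the minus strand, with the exon in capitals as each row has it.
Cacna1e, 57 nt borders: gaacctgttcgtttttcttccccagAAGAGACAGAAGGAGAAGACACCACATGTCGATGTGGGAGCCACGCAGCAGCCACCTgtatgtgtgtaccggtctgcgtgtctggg
Cacna1e, 54 nt borders: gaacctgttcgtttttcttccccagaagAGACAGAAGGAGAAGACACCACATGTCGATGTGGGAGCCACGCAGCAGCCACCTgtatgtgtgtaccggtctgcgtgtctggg
Cacna1e, 61 nt borders: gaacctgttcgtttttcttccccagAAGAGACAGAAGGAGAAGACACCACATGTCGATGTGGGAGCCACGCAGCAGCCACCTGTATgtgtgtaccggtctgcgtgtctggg

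The 54 nt form starts at a further AG directly after the main AG, and the 61 nt form ends at a further GT in the downstream intron. In the authors' deposited table, the 54 nt form stood at 0.501 in cKO against 0.931 in controls (difference -0.43, FDR 1.01e-05). The 61 nt form stood at 0.530 in cKO against 0.944 in controls by the authors' values (difference -0.41, FDR 1.05e-05). All 3 rows overlap, have the same coverage of 42.5 and are not independent, so they count here as 1 region. Their levels sum to more than 1 in cKO and in controls, so none of them is the share of RNA that uses those borders. In the longest complete transcript of 2273 codons, the 54 nt borders keep the frame and give 2272 codons, while the 61 nt borders shift the frame and give 794 codons. How much RNA uses each set of borders is not given by these levels.

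The 57 nt exon was in 3 of 4 Cacna1e coding transcripts in GENCODE, with 0 that span and skip it, while the 129 nt exon was in 1 of 4, with 2 that skip it. Both keep the reading frame. Without the 57 nt exon the longest complete transcript has 2254 codons, and with the 129 nt exon added it has 2316. The 57 nt exon holds 3 YCAY tetramers, all CCAC, and 54.9% of 175 listed cassette exons of 50 to 70 nt with a GENCODE sequence held at least 1. The 129 nt exon holds 2, and 90.7% of 247 such exons of 120 to 180 nt held at least 1. In the 100 nt of intron on each side of the 57 nt exon there were 0 tetramers upstream and 1 downstream. The 149 listed cassette exons whose flanks lie inside a GENCODE exon had a median of 3 in their 200 flanking nt, and 94.6% had at least 1.

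Another Cacna1e exon, of 90 nt, was listed between the controls. In the authors' deposited table its inclusion was 0.394 in Emx1-Cre controls against 0.696 in Gad2-Cre controls, a difference of -0.30 (FDR 0.00761, coverage 39). It begins in codon 410 of 2273, keeps the frame and holds 2 YCAY tetramers. At least 1 was held by 76.8% of 310 listed cassette exons of 80 to 120 nt with a GENCODE sequence. Of all listed events in that table, 63.7% were lower in Emx1-Cre controls, so the direction of this single Cacna1e event is the common one. The exon has no row in either cKO table, and neither of the other Cacna1e exons has a row between the controls.

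**Figure D2:**
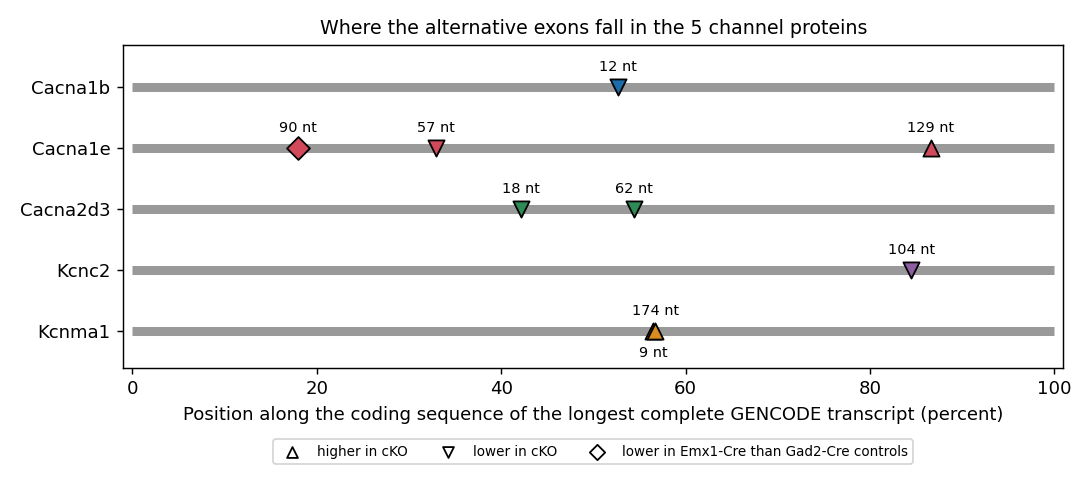
Position of the start of each alternative exon along the coding sequence (x axis, percent of the longest complete GENCODE transcript) of the 5 genes, with its length in nt. Triangles pointing up mark exons higher in cKO, triangles pointing down exons lower in cKO, and the diamond the exon that differed between controls. The 9 nt exon of Kcnma1 has no row of its own. It carries the direction of the tandem event that joins it to the 174 nt exon. In Cacna1e, the exon that fell lies at 32.9% and the exon that rose at 86.6%.

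Cacna2d3 encodes an α2δ subunit, an extracellular accessory protein that raises the number of calcium channels at the membrane and at synapses. Its 18 nt exon fell in the cKO of both cortical classes. In the authors' deposited table for Emx1-Cre neurons, inclusion was 0.0545 in cKO against 0.464 in controls (difference -0.41, FDR 0.000735, coverage 32.1). In the authors' deposited table for Gad2-Cre neurons, it was 0.123 in cKO against 0.671 in controls (difference -0.55, FDR 1.28e-11, coverage 97.2). In both classes little inclusion was left in cKO. The Gad2-Cre level was the higher of the classes in cKO and in controls, but the event has no row between the controls, and this was not tested. The exon begins in codon 461 of 1091, keeps the frame and gives 1085 codons when left out, and it holds 0 YCAY tetramers.

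A second exon of Cacna2d3, of 62 nt, was listed in Gad2-Cre neurons. Its inclusion was 0.564 in cKO against 0.903 in controls in the authors' deposited table (difference -0.34, FDR 6.53e-05, coverage 44.1). This length is not a multiple of 3. Leaving it out of the GENCODE transcript moves the stop from after codon 1091 to after codon 614, and that stop lies 1276 nt before the last exon junction. GENCODE has the 62 nt exon in 1 of 2 coding transcripts of Cacna2d3 and none that spans and skips it (0). It holds 0 YCAY tetramers.

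Kcnc2 encodes Kv3.2, a potassium channel whose fast opening and closing lets interneurons fire rapidly. Its 104 nt exon fell to a level close to 0 in Gad2-Cre cKO neurons. As a cassette exon it stood at 0.0189 in cKO against 0.390 in controls in the authors' deposited table (difference -0.37, FDR 2.83e-12, coverage 101), rank 140 of 726 listed cassette exons. The same exon is the named alternative of 6 mutually exclusive events, in which it is joined directly to a later exon without the 165 nt exon that follows it in the cassette event. Across these 6, the authors' levels lay from 0.0151 to 0.0435 in cKO and from 0.396 to 0.639 in controls. All 6 were lower in cKO, by 0.38 to 0.60 in the authors' values, and the highest FDR among them was 7.32e-07. They share the 104 nt exon and, in 5 of 6, the coverage of 81.0, so the 7 rows describe 1 region.

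The row of Kcnc2 with the largest change joins the exon to a block of 4340 nt, with 0.0435 in cKO against 0.639 in controls in the authors' deposited table, rank 7 of 489 mutually exclusive events. The competing exon of these rows is not given in the interval lists used here. In GENCODE the 104 nt exon is in 1 of 5 coding transcripts of Kcnc2, which has an incomplete start, and the other 4 skip it. Its insertion into the longest complete transcript, at codon 543 of 642, shifts the frame and gives 616 codons, so it alters the carboxy-terminal end of the channel. In the GENCODE transcript that holds it, the stop lies in the next exon, 45 nt before the last exon junction. The exon holds 3 YCAY tetramers, and 76.8% of 310 listed cassette exons of 80 to 120 nt held at least 1.

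Kcnma1 encodes the pore of the BK channel, a potassium channel opened by depolarisation and calcium together. Its 174 nt exon, known as STREX, lengthens the intracellular gating region and alters the channel's calcium sensitivity and its regulation by phosphorylation. As a cassette exon in Emx1-Cre neurons it stood at 0.510 in cKO against 0.186 in controls in the authors' deposited table (difference 0.32, FDR 0.000589, coverage 28.6). In the tandem event that joins the 174 nt exon to the 9 nt exon before it, the level was 0.431 in cKO against 0.106 in controls by the authors' values (difference 0.32, FDR 0.000171, coverage 26.6). The rows share the 174 nt exon and are not independent. The level of STREX against its skipping was thus intermediate in cKO neurons and low in controls.

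The 174 nt exon of Kcnma1 begins in codon 705 of 1242 of the longest complete transcript, keeps the frame, and gives 1184 codons when left out. It was in 9 of 31 coding transcripts of the gene in GENCODE, and 18 spanned its position without it. The 9 nt exon was in 4 of 31. The 174 nt exon holds 2 YCAY tetramers, CCAT near its start and CCAC near its end, and the 9 nt exon holds 0. At least 1 was held by 90.7% of 247 listed cassette exons of 120 to 180 nt with a GENCODE sequence, and by 23.3% of 103 up to 27 nt.

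The Emx1-Cre cKO table had 8 events of these genes, 3 higher and 5 lower in cKO, where 48.4% of its 2682 events were higher and 51.6% lower. Counted once per region, 2 were higher and 3 lower. In the Gad2-Cre cKO table, 10 events were lower and 0 higher in cKO, where 58.6% of its 1970 events were lower and 41.4% higher, and the 10 events are 4 regions. All 8 Emx1-Cre and all 10 Gad2-Cre events differed by at least 0.2, a size reached by 52.3% and 50.8% of all listed events in those tables. The median absolute difference was 0.412 over the 8 events against 0.209 over the whole Emx1-Cre table, and 0.471 over the 10 against 0.202 over the whole Gad2-Cre table. The listed events were repeated counts of a few exons, so these medians weight Kcnc2 and the 57 nt exon of Cacna1e most.

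Coverage was low for the Emx1-Cre events. It ranged from 26.6 to 73 over the 8, with a median of 37.3, against a median of 71 over the table, and only the Cacna1b event had a coverage of 50 or more. In the Gad2-Cre table the 10 events ranged from 44.1 to 101, with a median of 81.0 against 64.0 for the table. The tail exon of Cacna1e and the STREX exon of Kcnma1, which are the ones that rose, had more coverage than 16.8% and 15.2% of listed Emx1-Cre cassette exons.

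**Figure D3:**
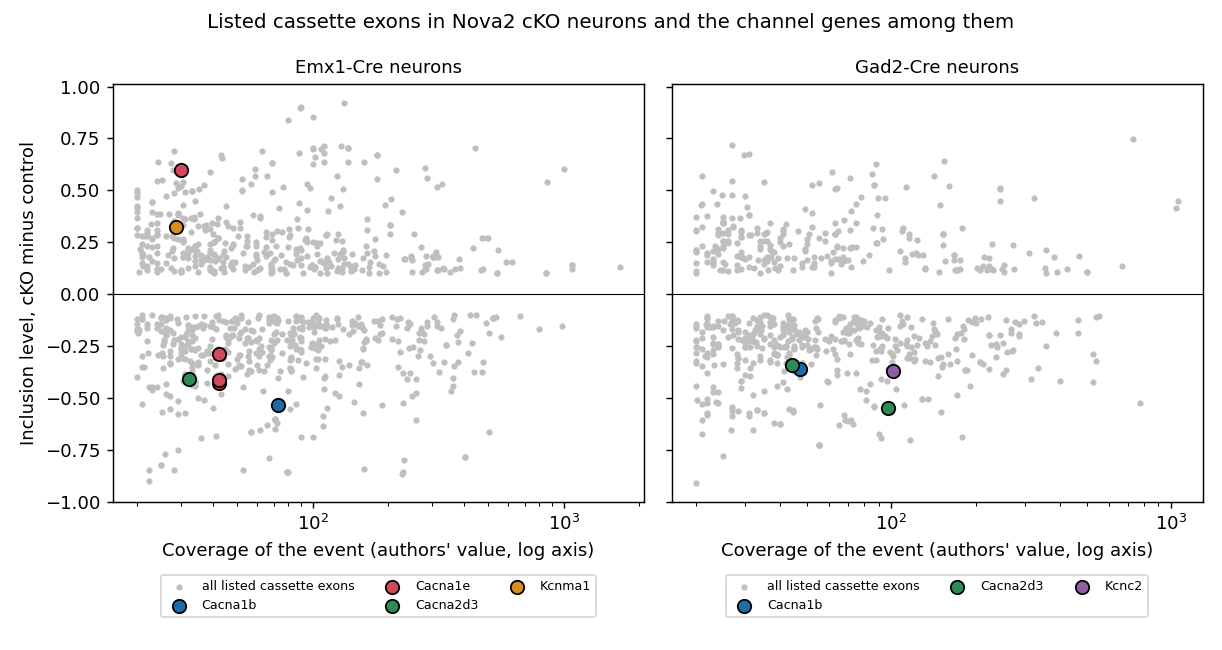
Difference of the inclusion level, cKO minus control (y axis), against the authors' coverage of the event (x axis, log scale) for all listed cassette exons (grey) and those of the channel genes (colours) in Emx1-Cre (left) and Gad2-Cre (right) neurons. The band from -0.1 to 0.1 is empty because smaller differences were not listed. The channel exons all lie at least 0.2 from 0, and in Emx1-Cre neurons all but that of Cacna1b lie below a coverage of 50.

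The 9 alternative exons had a median length of 62 nt, against 96 nt over the 1558 distinct cassette exons listed in the 3 cortical tables. Of the 9, 7 had a length that is a multiple of 3, as had 53.3% of the 1558. The exceptions were the 62 nt exon of Cacna2d3 and the 104 nt exon of Kcnc2, both listed in Gad2-Cre neurons. This counts the 57 nt exon of Cacna1e once, with those borders only. Its 61 nt borders, listed in Emx1-Cre neurons, also shift the frame, so frame-shifting rows were not confined to Gad2-Cre neurons. Of the 9, 3 were 27 nt or shorter, as were 7.89% of the 1558. The 9 nt exon of Kcnma1 is among the short ones but was listed only in a tandem event, while the 1558 are cassette exons. A YCAY tetramer was in 6 of the 9, and in 69.6% of the 1182 listed cassette exons with a GENCODE sequence. The exons without one were the 18 nt and 62 nt exons of Cacna2d3 and the 9 nt exon of Kcnma1, and the introns beside them were not examined.

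**Figure D4:**
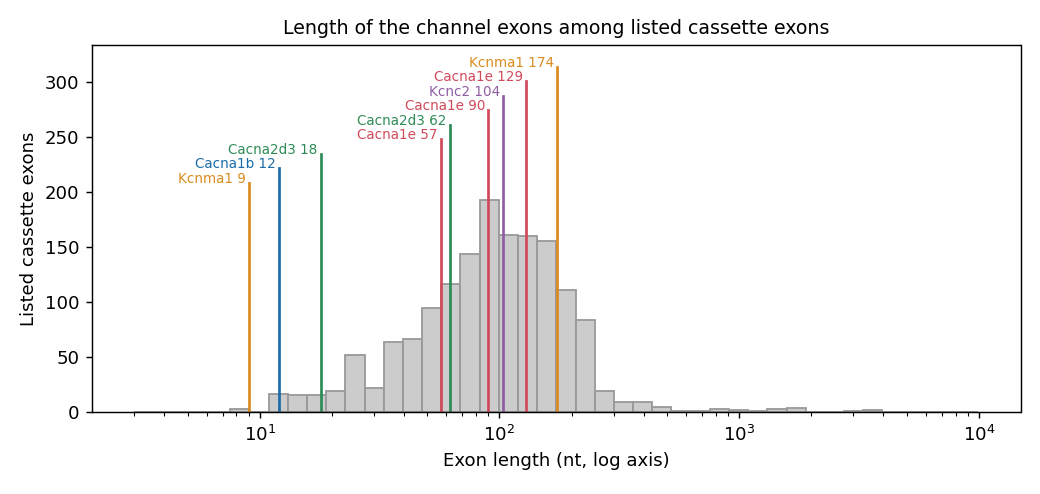
Number of distinct listed cassette exons (y axis) by length (x axis, nt, log scale) in the 3 cortical tables, with the 9 alternative exons of the channel genes marked by coloured lines whose height carries no value. The 9 nt exon of Kcnma1 belongs to a tandem event. The exons of Cacna1b, Cacna2d3 and Kcnma1 at 12, 18 and 9 nt lie in the sparse short end of the distribution.

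Among 318 cassette events of other genes listed in both cortical cKO tables, those with levels closest to Cacna1b over the 4 groups (Euclidean distance of the inclusion levels) were in Sipa1l2 (distance 0.0921), then Ptprf and Mcf2l (0.108), by the authors' values. The Sipa1l2 exon of 54 nt stood at 0.0187 in cKO against 0.487 in controls of Emx1-Cre, and at 0.0730 in cKO against 0.327 in controls of Gad2-Cre, in the authors' deposited tables. The events closest to the 18 nt exon of Cacna2d3 were in Ppip5k2 (distances 0.0804 and 0.0864, for a region listed with different borders) and in Grik2 (0.0837), a kainate receptor gene. The Grik2 exon of 87 nt stood at 0.0482 in cKO against 0.385 in controls of Emx1-Cre, and at 0.101 in cKO against 0.687 in controls of Gad2-Cre, again the authors' values.

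Events were also listed for other voltage-gated calcium and potassium channel genes and their accessory subunits. Of 87 such genes, 2 were listed in Emx1-Cre cKO, 5 in Gad2-Cre cKO, 2 between the controls and 5 in the Purkinje layer. The tables do not give how many genes were tested, so these counts have no background share. In Emx1-Cre neurons an exon of Cacnb4, a cytoplasmic calcium channel subunit, stood at 0.138 in cKO against 0.0338 in controls, the authors' values. In Gad2-Cre neurons the largest were Dpp6, an accessory subunit of A-type potassium channels, at 0.628 in cKO against 0.783 in controls, and Cacnb4 at 0.254 in cKO against 0.122 in controls, in the authors' deposited table. By the largest event of each gene, 1 of 2 was higher in Emx1-Cre cKO and 2 of 5 in Gad2-Cre cKO. The Cacnb4 event was listed in the same direction in both cortical classes. In Emx1-Cre neurons its difference of 0.104 and coverage of 20.3 lay close to the lowest listed (authors' FDR 0.0144). In Gad2-Cre neurons its difference was 0.131 with a coverage of 52.1 (authors' FDR 0.00196).

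Between the controls, Cacna1d, the pore of an L-type channel, had a 104 nt exon at 0.608 in Emx1-Cre against 0.253 in Gad2-Cre controls in the authors' deposited table (FDR 0.0015). Another cassette row with a 104 nt exon of Cacna1d was lower in Emx1-Cre controls, by 0.20 in the authors' values. A mutually exclusive event with a 104 nt exon was lower there by 0.30. Whether these rows hold the same exon or competing exons was not examined, so they are not counted here as separate results. Kcnip1, an accessory subunit of A-type channels, stood at 0.000435 in Emx1-Cre against 0.106 in Gad2-Cre controls, also the authors' values. This Kcnip1 event was close to the listing limits, with a difference of -0.106 and an authors' FDR of 0.0403 (coverage 29.5). In the Purkinje layer, the labels do not say which column holds the cKO, so only the listed difference was used and its sign was given no direction between groups. A cassette exon of Kcnab2, an accessory subunit of potassium channels, had a difference of -0.30 (FDR 0.000734) in the authors' deposited table. The largest event of all 5 listed genes had a difference below 0, as had 67.8% of the 603 events in that table.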

How the data were processed

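The members and lists were chosen with earlier results of these data known. Splicing was quantified by the authors with Quantas on mm10, per the labels; the submitters' processing notes also name kallisto and edgeR, in roles not given in the sources used here, as are the aligner and versions. Per the file headers, the deposited values are a fraction (inclusion level) for each of 2 groups, their difference as a score (group 1 minus group 2 within 3e-08 in the cortical tables), the coverage signal, and the authors' p-value and FDR. The deposited interval lists, whose BED score is always 0, gave exon positions, counted from 1. File names in the labels put control first in the cKO tables, and the differences printed here are cKO minus control. No label orders the Purkinje layer groups, so their levels were not used. Control levels matched the table of controls within 1e-06 at all 307 and all 323 shared events.

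From these, ranks, medians and shares over each table were computed with Python 3.11.15 and pandas 2.3.3. No model was fitted, since no value per library is given. Exons and frames came from GENCODE M21. All listed events of the 5 genes are named, and of 87 related genes the 2 with the largest difference per table, some of which are not reported here. Nearest events used 4 levels; this step was tested on simulated data.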

Additional observations from a re-analysis of the deposited data

How the results depend on the processing

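Counts of listed events of the 5 genes were recomputed under stricter limits. With an FDR of at most 0.01, or a difference of at least 0.2, the counts stayed at 8 in Emx1-Cre cKO, 10 in Gad2-Cre cKO, 1 between controls and 0 in the Purkinje layer. With a coverage of at least 50, the counts were 1 in Emx1-Cre cKO, the Cacna1b event, 8 in Gad2-Cre cKO and 0 between controls. At this limit no exon was listed in both cortical classes. The Cacna1b event had a coverage of 47 in Gad2-Cre cKO, and the 18 nt Cacna2d3 event had 32.1 in Emx1-Cre cKO. Over all listed events, the median coverage was 71 in Emx1-Cre cKO, 64.0 in Gad2-Cre cKO and 52.0 between controls. The 0.2 limit was passed by 52.3% of all listed events in Emx1-Cre cKO and 50.8% in Gad2-Cre cKO. Shares of all listed events that pass the FDR and coverage limits were not computed, so those counts have no background share. Counting 1 event per region gave 5 in Emx1-Cre cKO and 4 in Gad2-Cre cKO, since rows share exons. All 10 events in Gad2-Cre cKO were lower in cKO as listed. The stricter limits only remove rows, so they could not change that direction and do not test it. No paired analysis was possible because the tables hold 1 pooled level per group, and for the same reason leaving out a replicate was not run. Coverage limits the Emx1-Cre events of Cacna1e, Cacna2d3 and Kcnma1 most.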
